A study of Homo sapiens with 6 samples.

Results

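STC2, GDF15, ADM2 and VEGFA encode secreted proteins whose genes are induced by cellular stress. They were chosen by name from the deposited expression table because their mRNAs fell strongly with both guides against DDX6, and they make up 4 of 18806 gene symbols in the table. The libraries were poly(A)+ RNA of Mono-mac-6, an established human acute myeloid leukemia line of monocytic type that carries the MLL-AF9 fusion gene. All cells came from a single Cas9-expressing clone. They received the lentiviral guide sgDDX6.1 or sgDDX6.2, both against DDX6, or the control guide sgNS, with blasticidin and hygromycin B selection in all groups. Each of the 3 groups had 2 libraries, and the labels give harvest at day 8 after infection, although the selection they describe may have run longer. DDX6 is a DEAD-box helicase, found in cytoplasmic processing bodies, that helps to repress and degrade mRNAs. As a model the set is limited to 1 clone, and the labels do not say that replicate libraries came from separate cultures, so the p-values cover the spread between these libraries alone, and that spread may be technical.

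Cells under amino acid shortage, unfolded protein stress or other insults phosphorylate the initiation factor eIF2, which favours translation of the transcription factor ATF4. ATF4 and its partners then induce genes for amino acid supply and also genes for secreted signals. STC2 (stanniocalcin 2) is a glycoprotein that inhibits the protease PAPPA and so limits release of insulin-like growth factors. GDF15 is a distant member of the TGF-beta superfamily that signals through GFRAL and RET and rises in blood during mitochondrial and other stress. ADM2, also called intermedin, is a peptide of the calcitonin family that acts on CALCRL with a RAMP protein. VEGFA is the main growth factor for blood vessels, acts on KDR, FLT1 and the neuropilins, and is induced by hypoxia as well as by ATF4.

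The values were TPM, a transcript's share of its library after division by length, so levels can be compared between genes but no read depth is given. Each library summed to 1000000 TPM, and between 10794 and 11007 genes reached 1 TPM. DDX6 itself had between 52.0 and 54.4 TPM in the 4 sgDDX6 libraries, against 102 and 99.5 TPM in sgNS. Guides cut DNA, so mRNA is no measure of the protein left. Of 10 monocytic markers, 9 reached 1 TPM in each library, but not the same 9. CD14, a defining monocyte marker, was under 1 TPM in all 4 sgDDX6 libraries (means 0.57 TPM in sgDDX6.1, 0.695 TPM in sgDDX6.2 and 1.27 TPM in sgNS). CSF1R, the receptor of macrophage colony-stimulating factor, was under it in both sgNS libraries (means 1.98, 4.47 and 0.845 TPM in the same order). The markers shifted in both directions over both guides, with CSF1R, LYZ, CD68, SPI1 and CD33 called higher (by 1.13, 0.56, 0.56, 0.52 and 0.18 on the log2(TPM + 1) scale), MPO, FCGR1A, CD14 and ITGAM called lower (-1.23, -0.59, -0.49 and -0.34) and PTPRC not called (-0.01, limma adjusted p = 0.864). Testing needed 1 TPM in 2 or more libraries, which CSF1R reached through sgDDX6 libraries alone and CD14 through sgNS libraries alone. The calls of CSF1R and CD14 are thus description. In this contrast 66.7% of all genes tested were called, 33.8% higher and 32.9% lower. The summed level of the 10 monocytic markers lay between 14631 and 15901 TPM in sgDDX6 libraries and at 10752 and 10258 TPM in sgNS. Most of it was LYZ. Of 14 markers of other cell types, 2 reached 1 TPM in each library and 7 to 9 were at 0, with sums of 13.4 to 21.5 TPM in sgDDX6 libraries and 21.7 and 22.1 TPM in sgNS. CD3D, CD3E, MS4A1, HBB and CDH5 averaged 0 TPM in all groups. These markers' part in the results below was not tested, and in bulk RNA fewer cells that express a gene and less RNA per cell cannot be told apart.

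STC2 lay on chromosome 5 (173314713 to 173329503, minus strand, GRCh38, GENCODE release 29). It had 0.58 and 0.66 TPM in sgDDX6.1 and 0.10 and 0.28 TPM in sgDDX6.2, against 45.1 and 46.1 TPM in sgNS. The control libraries lay far above all 4 sgDDX6 libraries, in which the mRNA was close to the lower end of the scale. The mean with sgDDX6.1 was 1.36% of the sgNS mean, and with sgDDX6.2 it was 0.417%. Adding 1 before taking logs makes the change of low genes look smaller. On this log2(TPM + 1) scale the difference from sgNS was -4.85 with sgDDX6.1 and -5.30 with sgDDX6.2.

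GDF15 lay on chromosome 19 (18374731 to 18389176, plus strand). It had 0.80 and 0.58 TPM in sgDDX6.1 and 1.37 and 1.48 TPM in sgDDX6.2, against 46.8 and 48.4 TPM in sgNS. Again no sgDDX6 library came near the controls, and both sgDDX6.2 libraries lay above both sgDDX6.1 libraries. The means were 1.45% of that of sgNS with sgDDX6.1 and 2.99% with sgDDX6.2, and the log2 differences from sgNS were -4.85 and -4.32.

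ADM2 lay on chromosome 22 (50481556 to 50486440, plus strand). It had 0.86 and 0.77 TPM in sgDDX6.1 and 0.94 and 0.88 TPM in sgDDX6.2, against 20.9 and 21.2 TPM in sgNS. All 4 sgDDX6 libraries lay within a narrow band below 1 TPM, which was 3.87% of the sgNS mean for sgDDX6.1 and 4.33% for sgDDX6.2. The log2 differences from sgNS were -3.60 and -3.53.

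VEGFA lay on chromosome 6 (43770184 to 43786487, plus strand). It had 33.6 and 32.9 TPM in sgDDX6.1 and 37.1 and 37.7 TPM in sgDDX6.2, against 273 and 284 TPM in sgNS. It was the most abundant of the 4 in every library and kept the largest share of its control level, 11.9% with sgDDX6.1 and 13.4% with sgDDX6.2. The log2 differences from sgNS were -3.03 and -2.86.

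**Figure D1:**
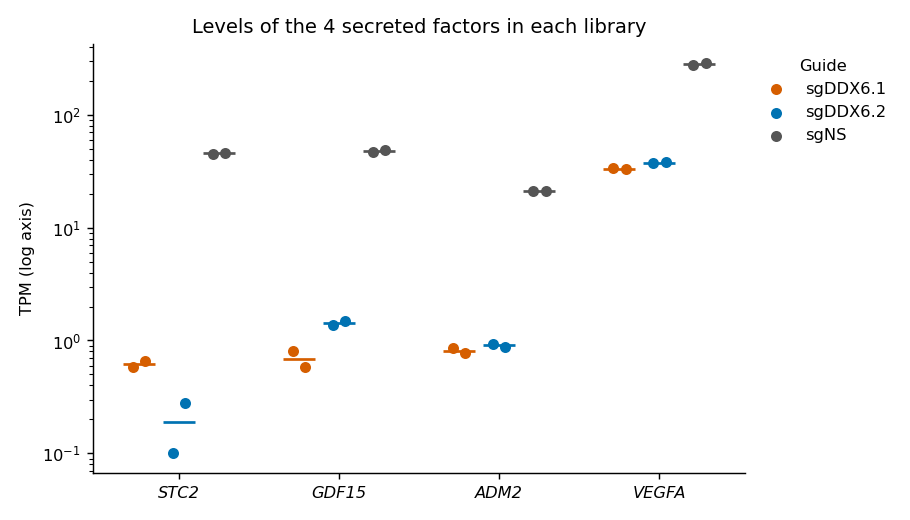
TPM on a log axis for STC2, GDF15, ADM2 and VEGFA, with 1 point per library, 2 libraries per guide and a bar at each group mean. All sgNS points lie above all sgDDX6 points, VEGFA stays above 30 TPM with both DDX6 guides, and STC2 reaches 0.10 TPM in an sgDDX6.2 library.

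These falls chose the 4 genes and are given without a test. Averaged over both guides, the log2 difference was -5.07 for STC2, -4.59 for GDF15, -3.57 for ADM2 and -2.95 for VEGFA, which placed them at ranks 1, 3, 12 and 22 from the largest fall among 11151 genes tested. All 4 passed the filter on low values (at least 1 TPM in 2 or more libraries), STC2 and ADM2 through their sgNS libraries alone. The filter and the ranks thus use the same contrast as the choice of genes. In that contrast 66.7% of all genes tested had an adjusted p under 0.05, 33.8% higher and 32.9% lower with DDX6 targeted, so a call there tells little about a single gene. With sgDDX6.1 alone 61.6% were called (31.8% higher, 29.7% lower), and with sgDDX6.2 alone 64.2% (31.5% higher, 32.7% lower). The size of the logged fall depended on the pseudocount, since 3 of the 4 genes were near 0 TPM with DDX6 targeted. At a pseudocount of 0.1 the ranks were 1, 4, 10 and 43, and at 5 they were 7, 8, 29 and 12.

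The order of the 4 mRNAs differed between groups. With sgDDX6.1 VEGFA (33.2 ± 0.544 TPM, mean ± SD, n = 2) lay above ADM2 (0.815 ± 0.0636), GDF15 (0.69 ± 0.156) and STC2 (0.62 ± 0.0566), and the GDF15 libraries overlapped those of both neighbours. With sgDDX6.2 the order was VEGFA (37.4 ± 0.453 TPM), GDF15 (1.43 ± 0.0778), ADM2 (0.91 ± 0.0424) and STC2 (0.19 ± 0.127), with no overlap. In sgNS the order was VEGFA (279 ± 7.64 TPM), GDF15 (47.6 ± 1.10), STC2 (45.6 ± 0.707) and ADM2 (21.0 ± 0.240). There the lower GDF15 library (46.8 TPM) and the higher STC2 library (46.1 TPM) were closer to each other than the 2 GDF15 libraries were.

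The difference between the DDX6 guides was not used to choose the genes and was tested with limma over all genes. Of the 4 genes, 2 were higher and 1 was lower with sgDDX6.2 than with sgDDX6.1, while among all genes tested 35.6% were called in this comparison, 17% higher and 18.6% lower. STC2 and GDF15, the pair with the deepest falls, differed between guides in opposite directions. DDX6 mRNA was 53.2 ± 1.73 TPM with sgDDX6.1 and 52.9 ± 0.799 TPM with sgDDX6.2 (SD, n = 2 each), with overlapping libraries.

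GDF15 was higher with sgDDX6.2 by 0.52 on the log2(TPM + 1) scale (SE 0.09, 95% interval 0.32 to 0.73, limma adjusted p = 0.00143), a ratio of means of 2.07. STC2 was lower with sgDDX6.2 on the same scale (-0.45, SE 0.10, 95% interval -0.67 to -0.23, limma adjusted p = 0.00543), a ratio of means of 0.306. This STC2 call rests on levels under 1 TPM and was lost without sgDDX6.2 replicate 1 (-0.34, limma adjusted p = 0.052). VEGFA was higher with sgDDX6.2 by 0.17 (SE 0.05, 95% interval 0.06 to 0.27, limma adjusted p = 0.0168), a ratio of means of 1.13. The VEGFA call was lost without sgDDX6.1 replicate 2 (limma adjusted p = 0.0533), without sgDDX6.2 replicate 1 (limma adjusted p = 0.0753) and without sgDDX6.2 replicate 2 (limma adjusted p = 0.119). The size of the STC2 and GDF15 differences moved with the pseudocount, to -1.38 and 0.96 at 0.1 and to -0.12 and 0.18 at 5, where STC2 was not called (limma adjusted p = 0.09) and GDF15 was (limma adjusted p = 0.0202). For ADM2 no difference was called (0.07, SE 0.09, limma adjusted p = 0.557), and the 95% interval of -0.12 to 0.27 still allows a difference the size of that of VEGFA.

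**Figure D2:**
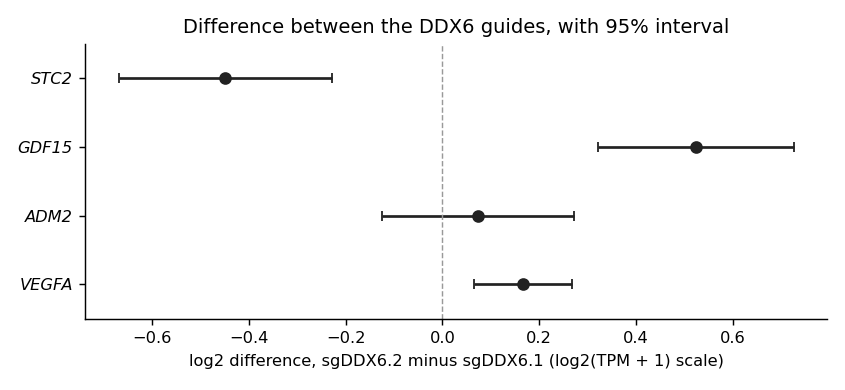
Log2 difference of sgDDX6.2 minus sgDDX6.1 on the log2(TPM + 1) scale for each gene, as a point with its 95% interval from limma (2 libraries per guide). STC2 lies below 0 at -0.45, GDF15 and VEGFA lie above 0 at 0.52 and 0.17, and the interval of ADM2 spans 0.

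Start regions are shown as description, with letters known to be bound by factors that induce such genes. Whether these letters have a part in the falls was not tested. RefSeq start regions (GRCh38.p14) were at hand for STC2, GDF15 and ADM2 and for CHAC1, the gene whose profile over the libraries was nearest to those of STC2 and GDF15. VEGFA had no entry. In the 250 bases before each start, 6 motifs were searched on both strands. They were TGATGNAAN (the C/EBP-ATF element that ATF4 binds with C/EBP partners), TGANTCA (AP-1), ACGTG and GCGTG (cores of hypoxia response elements), CCACG (the end of an ER stress element, which overlaps GCGTG in the run GCGTGG) and GGGCGG (GC box). Capitals mark matches. The ADM2 region is given whole (chr22:50481293-50481542, plus strand), and 30 bases are given of the others, where annotated exons lie in the region. These are chr5:173328625-173328654 (minus strand) for STC2, chr19:18386078-18386107 (plus strand) for GDF15 and chr15:40953251-40953280 (plus strand) for CHAC1.
STC2: atacaCACGCACGCaaacGCGTGGccgccg
GDF15: agggggaggaGGGCGGgactgagcaggcgg
ADM2: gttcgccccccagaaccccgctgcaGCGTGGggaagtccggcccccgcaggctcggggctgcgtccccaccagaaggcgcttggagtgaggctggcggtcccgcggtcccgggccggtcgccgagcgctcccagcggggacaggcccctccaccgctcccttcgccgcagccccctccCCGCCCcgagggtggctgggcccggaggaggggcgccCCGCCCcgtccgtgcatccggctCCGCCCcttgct
CHAC1: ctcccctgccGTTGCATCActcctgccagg

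CHAC1 held a C/EBP-ATF element on its minus strand, from 210 to 202 bases before the start. No match to it was found in the 250 bases of STC2, GDF15 or ADM2. It was present in 3.18% of 27305 start regions of this length, in 1.35% of the 8717 regions of genes tested here and in 4 of the 24 regions found for a list of ATF4 target genes. STC2 held GCGTG 3 times, all more than 217 bases before its start, and ADM2 held it 1 time, from 225 to 221 bases before. GCGTG was present in 31.9% of all regions and CCACG in 33.3%, and in 46.6% and 45.1% of those of genes tested. GDF15 had 2 GC boxes and ADM2 had 3, and 42.3% of all regions and 67.7% of those of genes tested held at least 1. A match is a description of the letters, and a missing match says only that the letters are not in this window. The RefSeq starts of STC2 (173328414) and GDF15 (18386158) lie inside the GENCODE genes, so these windows are not upstream of every annotated start.

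By root mean square distance of centred log2(TPM + 1) profiles over the 6 libraries, the genes most like STC2 were CHAC1 (0.27), which degrades glutathione, the mitochondrial folate enzyme ALDH1L2 (0.42), GDF15 (0.47) and the pseudokinase TRIB3 (0.54). CHAC1 had 1.93 and 1.48 TPM in sgDDX6.1 and 1.91 and 1.45 TPM in sgDDX6.2, against 70.9 and 79.4 TPM in sgNS, so it was above STC2 in every library. The genes most like GDF15 were CHAC1 (0.27), ALDH1L2 (0.31), the serine synthesis enzyme PSAT1 (0.41) and the calcium-binding protein S100P (0.42). S100P shared the higher level with sgDDX6.2, at 31.8 and 36.3 TPM against 16.6 and 16.9 TPM with sgDDX6.1, and it had 327 and 362 TPM in sgNS. Since these distances include the fall that chose the genes, they describe the profiles and test nothing.

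ADM2 and VEGFA had closer neighbours. ADM2 was nearest to PHGDH (0.04), the first enzyme of serine synthesis, with 35.4 ± 0.721 TPM in sgDDX6.1, 36.5 ± 0.0424 TPM in sgDDX6.2 and 422 ± 13.2 TPM in sgNS (SD, n = 2 each). CTH (0.09), which makes cysteine, and the chaperone CLGN (0.11) were also among the nearest. VEGFA was nearest to the transcription factor ATF5 (0.06), which had 54.6 and 57.1 TPM in sgDDX6.1, 60.9 and 64.4 TPM in sgDDX6.2 and 422 and 443 TPM in sgNS. INHBE (0.09), CCPG1 (0.09), an ER-phagy receptor, and the peroxidase LPO (0.09) followed. Between the 4 genes themselves the distance on this scale was smallest for ADM2 and VEGFA (0.30) and largest for STC2 and VEGFA (1.03). The added 1 shrinks the fall of ADM2, which was near 0 TPM with DDX6 targeted, more than that of VEGFA. At a pseudocount of 0.1 the log2 differences over both guides were -4.46 for ADM2, -5.45 for GDF15 and -2.98 for VEGFA. Distances were not computed at that pseudocount.

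**Figure D3:**
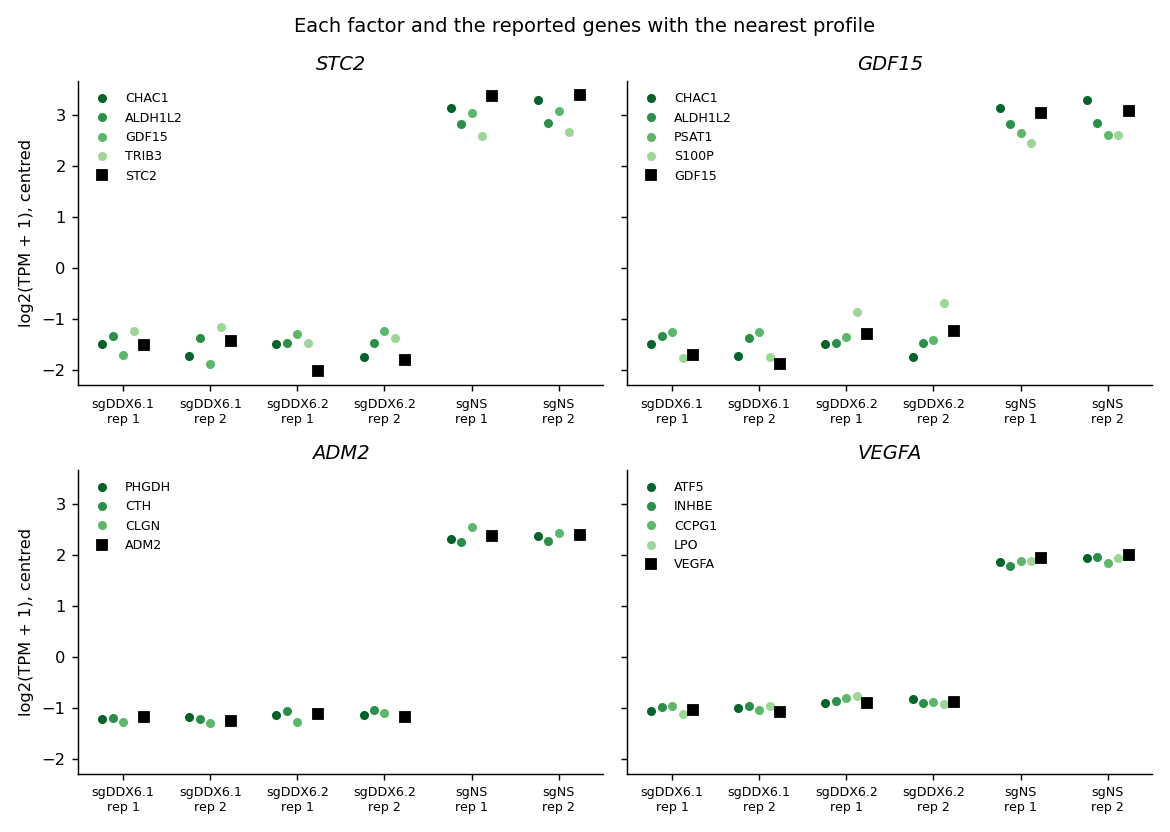
Centred log2(TPM + 1) in each of the 6 libraries for STC2, GDF15, ADM2 and VEGFA (black squares) and the 3 or 4 reported genes nearest to each by root mean square distance (green points). Both sgNS libraries stand above all others in each panel, and the points lie closest together for ADM2 and VEGFA, with distances of 0.04 to 0.11.

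INHBE was the secreted ligand among the genes nearest to VEGFA. It encodes the activin E subunit, a TGF-beta superfamily member made mostly by liver. INHBE had 0.02 and 0.03 TPM in sgDDX6.1 and 0.10 and 0.08 TPM in sgDDX6.2, against 5.89 and 6.86 TPM in sgNS. The group means were 0.392% and 1.41% of that of sgNS, smaller shares than for ADM2 or VEGFA, yet the pseudocount held its log2 difference over both guides to -2.80. Like STC2 and ADM2 it passed the filter through sgNS alone, and its fall is part of the likeness that picked it, so it is given without a test. The difference of -2.80 put INHBE at rank 28, just below VEGFA at rank 22, and at a pseudocount of 0.1 it ranked sixth, ahead of both ADM2 and VEGFA.

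Most tested ligands related to the 4 did not fall, but the paralogs of STC2 and ADM2 could not be judged. Of 36 listed ligands of the stanniocalcin, calcitonin, VEGF and TGF-beta families, 35 were in the table and 10 were tested. Over both guides 7 were higher and 2 lower, beside 33.8% and 32.9% of all genes tested. The median log2 difference was 0.34, beside 0.001 for all genes tested. STC1, the paralog of STC2, was at 0 TPM in every group. ADM, the paralog of ADM2, was not tested, at 0.685 TPM in sgDDX6.1, 0.43 TPM in sgDDX6.2 and 0.59 TPM in sgNS. ADM5, a small relative of adrenomedullin, rose by 0.53 (limma adjusted p = 0.000438).

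VEGFB, which binds FLT1, had 57.6 and 57.7 TPM in sgDDX6.1 and 48.3 and 49.3 TPM in sgDDX6.2, against 37.1 and 40.4 TPM in sgNS. It rose by 0.44 over both guides (SE 0.05, limma adjusted p = 6.21e-06), in the opposite direction to VEGFA, and no library of the groups overlapped. The lymphatic growth factor VEGFC was called lower (-0.31, limma adjusted p = 0.0374), but at 0.715 TPM in sgDDX6.1, 0.82 TPM in sgDDX6.2 and 1.19 TPM in sgNS. Without sgNS replicate 1, or without sgNS replicate 2, none of the list was called lower. INHBE and VEGFC each pass the filter through sgNS, and without an sgNS library neither was tested. TGFB2 rose by 0.65, BMP8B by 0.51, GDF11 by 0.37 and TGFB1 by 0.24.

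Of 12 listed receptor genes, 2 were tested. GFRAL, KDR, CALCRL, NRP2, RAMP3 and ACKR3 averaged 0 TPM in all groups. NRP1, FLT4, RAMP1 and RAMP2 stayed below 1 TPM. RET, the kinase through which GDF15 and its receptor GFRAL signal, was present and rose. It had 58.6 and 57.9 TPM in sgDDX6.1 and 67.3 and 69.6 TPM in sgDDX6.2, against 29.1 and 29.5 TPM in sgNS, a log2 difference over both guides of 1.08 (SE 0.04, limma adjusted p = 1.35e-09). All 4 sgDDX6 libraries lay above both controls, and RET was also higher with sgDDX6.2 than with sgDDX6.1 (0.23, limma adjusted p = 0.0042). FLT1, a receptor of VEGFA, had 3.84 ± 0.0707 TPM in sgDDX6.1, 4.35 ± 0.0990 TPM in sgDDX6.2 and 4.44 ± 0.339 TPM in sgNS (SD, n = 2 each) and was not called (-0.10, limma adjusted p = 0.295).

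Of 14 tested genes for maturation enzymes and partners, 8 rose and 2 fell over both guides (median 0.21). Among all genes tested 33.8% rose and 32.9% fell. Both PAPPA and PAPPA2, the proteases that STC2 inhibits, stayed below 1 TPM, as did IGF1, IGF2 and IGFBP5. IGFBP4, the binding protein that PAPPA cleaves, had 4.88 and 5.32 TPM in sgDDX6.1 and 8.77 and 9.69 TPM in sgDDX6.2, against 2.74 and 3.20 TPM in sgNS. It rose by 0.99 (SE 0.08, limma adjusted p = 7.54e-07) and was higher with sgDDX6.2 than with sgDDX6.1 by 0.75. IGFBP2, another binding protein of insulin-like growth factors, fell by 1.74 (SE 0.08, limma adjusted p = 3.49e-09), with 8.70 and 9.08 TPM in sgDDX6.1, 5.94 and 4.87 TPM in sgDDX6.2 and 26.5 and 24.7 TPM in sgNS.

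Among enzymes that cut or modify such precursors, the proprotein convertase PCSK7 rose by 0.53 and PAM, which amidates peptides, by 0.14. PAM was called with sgDDX6.2 (0.24, limma adjusted p = 0.00629) but not with sgDDX6.1 (0.04, limma adjusted p = 0.572). FURIN was not called over both guides (-0.10, limma adjusted p = 0.116), although it was higher with sgDDX6.2 than with sgDDX6.1 by 0.52 (limma adjusted p = 0.00012). Among proteins that release or hold growth factors in the matrix, the protease MMP2 rose by 1.60, the urokinase PLAU by 0.59 and perlecan (HSPG2) by 0.48. HMOX1, which breaks down heme, rose by 0.90.

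Other secreted products of stress-induced genes were mixed. Of 40 listed, 37 were in the table and 19 were tested, of which 10 fell and 6 rose (median -0.38). The shares over all genes tested were 32.9% and 33.8%. The chemokine CXCL2 fell by 1.44, the cytokine subunit IL23A by 1.43, the growth factor PDGFA by 1.18, NAMPT, an enzyme also found outside cells, by 1.18 and CXCL8 by 0.94. In the other direction CRELD2, which leaves the ER during stress, had 48.6 and 50.0 TPM in sgDDX6.1 and 51.9 and 50.5 TPM in sgDDX6.2, against 22.1 and 22.8 TPM in sgNS (1.13, SE 0.05, limma adjusted p = 1.77e-09). SDF2L1 rose by 0.80, EREG by 0.41, THBS1 by 0.36 and MANF by 0.15, the last with libraries that overlapped those of sgNS. The stress hormones FGF21 and ANGPTL4 and the binding protein IGFBP1 stayed below 1 TPM in all groups.

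**Figure D4:**
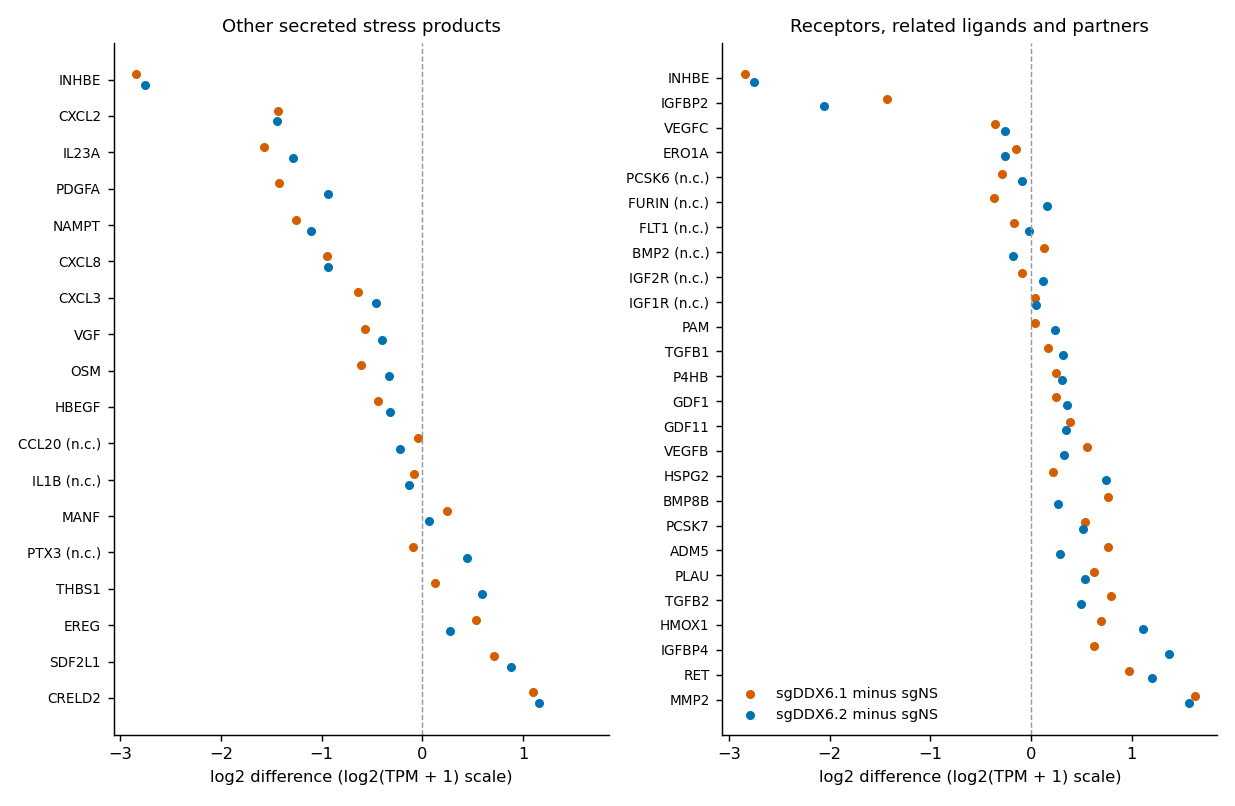
Log2 difference from sgNS on the log2(TPM + 1) scale for each DDX6 guide (orange sgDDX6.1, blue sgDDX6.2), for reported genes of other secreted stress products (left) and of receptors, related ligands and partners (right), where n.c. marks genes not called over both guides. INHBE lies farthest left, near -2.80 with both guides, and MMP2, RET and CRELD2 lie at or above 0.97.

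The regulators of these genes were measured too. All 23 listed were tested, of which 19 fell and 4 rose over both guides (median -0.62), beside 32.9% and 33.8% of all genes tested. ATF4 had 374 TPM in sgDDX6.1 and 350 TPM in sgDDX6.2, against 588 TPM in sgNS (-0.70, SE 0.03, limma adjusted p = 3.82e-09). This was a smaller change than for any of the 4 secreted factors, which were chosen for strong falls. Factors known to act with ATF4 had larger falls than ATF4. The falls were 2.85 for ATF5, 2.13 for CEBPB, 1.59 for DDIT3 (CHOP), 1.39 for CEBPG and 1.11 for ATF3. These factors and NUPR1 are also in the ATF4 target list below, so their falls are counted there again. Their part in the falls of the 4 genes was not tested. NUPR1, a stress-induced chromatin protein, fell by 2.52. Like GDF15, it was higher with sgDDX6.2 (4.01 and 3.77 TPM) than with sgDDX6.1 (1.55 and 1.00 TPM), against 17.5 and 18.6 TPM in sgNS. XBP1 fell by 0.94 and its activating enzyme ERN1 by 1.79. Of the eIF2 kinases, EIF2AK2 fell by 0.62 and EIF2AK3 by 0.34, while EIF2AK4 rose by 0.28 and EIF2AK1 by 0.18.

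In the ATF4 target list every one of the 33 tested genes fell (median -2.37), beside 32.9% of all genes tested. For 29 of the list the fall was 2-fold or more. This list was drawn up with earlier results of these data known and is no independent evidence of its direction. STC2, GDF15, ADM2 and VEGFA all had falls beyond that median. They were chosen for strong falls in this same contrast, so their place in it tests nothing. Between the guides 5 genes of the list were higher and 12 lower with sgDDX6.2, beside 17% and 18.6% of all genes tested. The cystine carrier SLC7A11 was lower by 0.54 and SLC7A5 by 0.52, as STC2 was, while VLDLR was higher by 0.56 and NUPR1 by 1.11, as GDF15 was.

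Hypoxia genes, which often accompany VEGFA, were split. Of 23 tested, 10 rose and 10 fell over both guides (median -0.05), beside 33.8% and 32.9% of all genes tested. HIF1A fell by 0.23, ARNT rose by 0.13 and EPAS1 rose by 2.01, with 11.5 TPM in sgDDX6.1 and 9.64 TPM in sgDDX6.2 against 1.87 TPM in sgNS. DDIT4, also an ATF4 target, fell by 2.54 and the glucose transporter SLC2A3 by 1.93, whereas the collagen hydroxylase P4HA2 rose by 1.04, PFKFB4 by 0.57, BNIP3 by 0.51, PGK1 by 0.49 and LDHA by 0.45. CA9 averaged 0 TPM with both DDX6 guides and 0.18 TPM in sgNS, and EGLN3 stayed below 1 TPM.

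Of 18 ER stress genes, 10 rose and 6 fell (median 0.20), beside 33.8% and 32.9% of all genes tested. The chaperones CALR (1.16), HSP90B1 (0.67), PDIA4 (0.66) and HSPA5 (0.34) rose, but the chaperones HYOU1 and DNAJC3 fell (-0.13 each). DNAJC3 had libraries that overlapped those of sgNS. It was not called with sgDDX6.1 alone (limma adjusted p = 0.0696) or sgDDX6.2 alone (limma adjusted p = 0.0872). HERPUD1 (-2.01), EDEM1 (-0.71) and SEL1L (-0.63), which serve degradation of misfolded proteins, and the co-chaperone DNAJB9 (-1.23) fell. SYVN1, a degradation ligase, was called higher (0.18), with 70.8 TPM in sgDDX6.1 and 93.5 TPM in sgDDX6.2 against 71.6 TPM in sgNS. With sgDDX6.1 alone SYVN1 was not called (-0.01, limma adjusted p = 0.826), so its rise was that with sgDDX6.2 (0.38). Of 17 genes for proteins known to bind VEGFA mRNA or parts of the complexes that do, 6 rose and 7 fell (median -0.01). The same shares of all genes, 33.8% and 32.9%, stand beside these counts. HNRNPL, which binds the VEGFA 3′ end, rose by 0.48, and the destabilizing protein ZFP36L1 fell by 0.83 while its relatives ZFP36L2 and ZFP36 rose by 0.44 and 0.33. ELAVL1, which stabilizes AU-rich mRNAs, rose by 0.32. EPRS, a tRNA synthetase, fell by 1.07.

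The genes next to each of the 4 on the chromosome were examined after the values were known. LRRC25, 2.0 kb from GDF15, was called higher by 0.33 averaged over both guides (limma adjusted p = 0.00725). Its mean was above that of sgNS (1.60 TPM) with sgDDX6.2 (3.33 TPM) but below it with sgDDX6.1 (1.47 TPM). PGPEP1, 4.8 kb away on the other side, fell by 0.18 (limma adjusted p = 0.00622). MRPS18A, 82.4 kb from VEGFA, fell by 0.27. C6orf223, 214.1 kb away on the other side, was lower by 0.24 averaged over both guides. Its mean was below that of sgNS (5.54 TPM) with sgDDX6.1 (3.12 TPM) but above it with sgDDX6.2 (6.47 TPM). SBF1, 6.5 kb from ADM2 (-0.08, limma adjusted p = 0.185), and BOD1, 278.0 kb from STC2 (-0.11, limma adjusted p = 0.194), were not called. NKX2-5, 79.4 kb from STC2, and MIOX, 0.3 kb from ADM2, were not tested, at 0 to 0.075 TPM.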

How the data were processed

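Poly(A)+ RNA of 6 Mono-mac-6 libraries was sequenced, 2 for each of sgDDX6.1, sgDDX6.2 and sgNS, grouped by the titles in the labels. The authors deposited TPM per gene symbol. Quantification used RSEM 1.2.31 with genome build GRCh38, per the submitters' processing notes. The aligner and gene annotation were not given in the sources used here. Such values are shares of a library and carry no depth, so no counting interval or detection limit can be given, and values near 0 are least certain.

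From TPM, log2(TPM + 1) was computed for 11151 genes with at least 1 TPM in 2 or more libraries. In limma 3.58.1 (R 4.3.3) all 6 libraries entered 1 fit of the 3 group means with a trended variance prior, which left 3 residual degrees of freedom. Two-sided p-values were adjusted by Benjamini-Hochberg over every gene tested, with 0.05 as threshold and 95% intervals. The procedure was tested on simulated data. The members, gene lists and the rule for named genes were chosen with earlier results of these data known. Named genes are the 4 members, DDX6, listed genes (per list up to 6 called genes with the largest changes, all tested receptors and regulators where space allowed, and any gene of lists with 12 or fewer tested; others were picked after their values were seen), and the 4 nearest profiles of each member. Lists share some genes, and a few genes are not reported here. Coordinates and transcript features are from GENCODE release 29, start regions from RefSeq. As alternatives, the pseudocount was set to 0.1 and 5, the filter was dropped or raised to 5 TPM, and the fit was repeated with quantile normalization, median centring, no variance trend, the replicate number in the model, and leaving out each library.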

Additional observations from a re-analysis of the deposited data

Results flagged for a closer look

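Effects of the 2 DDX6 guides against the shared sgNS libraries differed by the limma test of the guides against each other for 3 of the 4 genes. The log2 difference of sgDDX6.2 minus sgDDX6.1 was -0.45 for STC2, 0.52 for GDF15 and 0.17 for VEGFA, while 35.6% of all genes tested were called in this comparison. Both sgDDX6.2 libraries lay below both sgDDX6.1 libraries for STC2 and above both for GDF15 and VEGFA. They also lay above both for ADM2 (0.94 and 0.88 TPM against 0.86 and 0.77 TPM), which was not called. Separation of 2 libraries from 2 thus says little, and its share among all genes is not given here.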

How the results depend on the processing

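Every fall from sgNS of the 4 genes kept its sign under all alternatives that gave a value. Since the genes were chosen for large falls in these libraries, the kept sign is no separate support. At a pseudocount of 0.1 the log2 difference over both guides was -6.68 for STC2, -5.45 for GDF15, -4.46 for ADM2 and -2.98 for VEGFA, and at 5 it was -3.23, -3.12, -2.15 and -2.82 in the same order. A larger pseudocount shrinks low values by construction. Under quantile normalization ADM2 had -3.50. Between the guides, the difference was -1.38 for STC2 and 0.96 for GDF15 at a pseudocount of 0.1 and 0.18 for GDF15 at 5, all 3 still called. The STC2 call was lost at a pseudocount of 5 (-0.12, limma adjusted p = 0.09) and with no filter (-0.45, limma adjusted p = 0.0738), and the small ADM2 difference turned to -0.046 under quantile normalization (limma adjusted p = 0.684), where the cause was not tested. Leaving out a library gave -0.56 to -0.34 for STC2, 0.43 to 0.62 for GDF15, 0.04 to 0.11 for ADM2 and 0.15 to 0.18 for VEGFA. Some of these fits lost the STC2 or the VEGFA call, as given above. In these fits a lone library is assumed to vary like the other groups, and without either sgNS library STC2 and ADM2 failed the filter and gave no value. Over all genes, 3971 were called between the guides, 1760 with no filter and 2252 to 4121 with a library left out. Of the counts of listed genes given above, that of lower related ligands (2, but 0 to 1 under 8 alternatives) moved by over 1.5 times. Whether replicate numbers pair the libraries is not known, and the main fit treats them as unpaired. Deviations of same-numbered libraries correlated across genes at 0.04 for sgDDX6.2 with sgDDX6.1, 0.26 for sgDDX6.1 with sgNS and 0.10 for sgDDX6.2 with sgNS. With the replicate block 7859 genes were called over both guides against 7434 without it, and 4809 against 3971 between the guides. The block changed no call of the 4 genes, with guide differences of -0.45, 0.52, 0.07 and 0.17.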

Other observations

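Transcript features of the 4 genes lay on 1 side of the median of genes tested for some measures and on both sides for others. In the longest complete protein-coding transcript of each gene in GENCODE release 29, which may not be the one expressed here, the 3′ untranslated region had 3134 bases for STC2, 241 for GDF15, 3537 for ADM2 and 1925 for VEGFA, beside a median of 1257 for genes tested. Coding length was 909 bases for STC2, 927 for GDF15, 447 for ADM2 and 1116 for VEGFA, all under the median of 1344. The number of exons was 4, 2, 2 and 7 in the same order, beside a median of 9. The AU-rich core ATTTA occurred 13 times there in STC2, 5 in GDF15, 3 in ADM2 and 10 in VEGFA, beside a median of 2. STC2 had 11 ATG triplets in a 5′ untranslated region of 1310 bases, longer than that of 98.0% of genes tested, and the other 3 had none. Transcript GC content was 62.9% in GDF15 and 63.1% in ADM2, above that of 92.1% and 92.4% of genes tested, and 51.7% in STC2 and 51.3% in VEGFA, beside a median of 48.6%. The GC content of the 3′ untranslated region was 46.3% in STC2, 46.9% in GDF15, 60.6% in ADM2 and 43.0% in VEGFA, beside a median of 42.5%.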
